A study of Mus musculus with 42 samples.

Results

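The foregut endoderm genes examined here were 9 of the 56953 genes in the counts, found by matching the Ensembl identifier of each row to its mouse GENCODE symbol. They were 5 transcription factors (*Foxa1*, *Foxa2*, *Sox17*, *Nkx2-1* and *Hhex*) and 4 epithelial proteins (*Cdh1*, *Epcam*, *Krt8* and *Krt18*), and each matched a single row. RNA was sequenced from the left and from the right heart field of 21 mouse embryos at stage E8.5i, giving 42 libraries. The wild types, Ccdc40+/+, were 5 embryos with rightward heart looping. The homozygous mutants, Ccdc40lnks/lnks, were 11 embryos with rightward looping and 5 embryos with inverted looping. The study further divides the rightward-looping mutants into situs solitus and heterotaxy from expression, which the labels do not give, so this group mixes laterality phenotypes and its values are over both. The protein made from *Ccdc40* allows motile cilia to beat, so that the mutants lack the fluid flow of the node, and the mutation is carried by all cells. Males and females were mixed in each group, with 4 males of 5 wild types, 6 of 11 rightward-looping mutants and 3 of 5 inverted-looping mutants. The heart field was dissected as the tissue left after the head, back, trunk and heart tube were taken away, and was cut along the midline. The sample is thus labelled a heart field, but it also held the epithelia that lie against it.

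The foregut is the anterior part of the gut tube, a sheet of endoderm that lies against the dorsal pericardial wall, where heart progenitors reside. The FOXA factors open chromatin in endoderm, SOX17 acts when endoderm is first specified, HHEX marks the ventral foregut that gives rise to liver and thyroid, and NKX2-1 marks the part that gives rise to thyroid and lung. Endoderm is an epithelium, held together by E-cadherin and EPCAM and strengthened by filaments of keratins 8 and 18. None of these genes is exclusive to the foregut. *Foxa2* is also expressed in notochord and floor plate, *Sox17* and *Hhex* in endothelium, *Nkx2-1* in ventral forebrain, *Cdh1* and *Epcam* in surface ectoderm, and *Krt8* and *Krt18* in most simple epithelia and in early heart muscle.

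The libraries held between 36073684 and 62970327 counts. The level of *Ccdc40* was between 15.4 and 26.3 CPM in wild types, between 8.88 and 14.5 CPM in rightward-looping mutants and between 10.0 and 14.6 CPM in inverted-looping mutants, so that wild types and mutants did not overlap. CPM are counts scaled to library size after TMM normalization, in parts per 1000000. Both libraries of the rightward-looping mutant 2_2 and the right library of the wild type 10_1 stood apart. The right library of 2_2 had 0.350 CPM of *Tbx5* and 2.99 CPM of *Wnt2*, against medians of 65.8 and 185 CPM over all libraries. The right library of 10_1 had the highest level of *Pax6*, 112 CPM against a median of 11.7 CPM, and the lowest summed levels of the 5 transcription factors and of the 4 epithelial proteins, 40.2 and 640 CPM. Medians over the other 39 libraries were 89.7 and 1247 CPM. Fitted changes of the members that moved most without these embryos are given both ways, whereas correlations and summed marker levels include them.

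All members but *Nkx2-1* had at least 72 counts in every library. Scaled per kilobase of merged exons, so that genes can be compared, *Krt18* had the highest median level, 385 CPM per kb, with a range of 191 to 566 over the 42 libraries. *Krt8* followed with a median of 252 CPM per kb. These keratins, which pair in the same filament, are neighbours on chromosome 15 of GRCm39, *Krt8* at 101905133-101912917 on the minus strand and *Krt18* at 101936615-101940462 on the plus strand, with 23697 bases between them.

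The adhesion proteins came next on this scale. *Epcam* had a median of 45.9 CPM per kb and *Cdh1* of 24.2 CPM per kb. Transcription factors were lower, with medians of 7.83 CPM per kb for *Sox17*, 4.55 for *Hhex*, 4.13 for *Foxa2*, 1.81 for *Foxa1* and 0.176 for *Nkx2-1*. Within a library, the order of neighbours was the same in all 42 libraries for *Krt18* over *Krt8*, *Krt8* over *Epcam*, *Epcam* over *Cdh1*, *Cdh1* over *Sox17* and *Foxa2* over *Foxa1*. *Sox17* exceeded *Hhex* in 40 of 42 libraries and *Foxa1* exceeded *Nkx2-1* in 41 of 42. *Hhex* exceeded *Foxa2* in only 25 of 42 libraries, so that their order was not resolved.

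**Figure D1:**
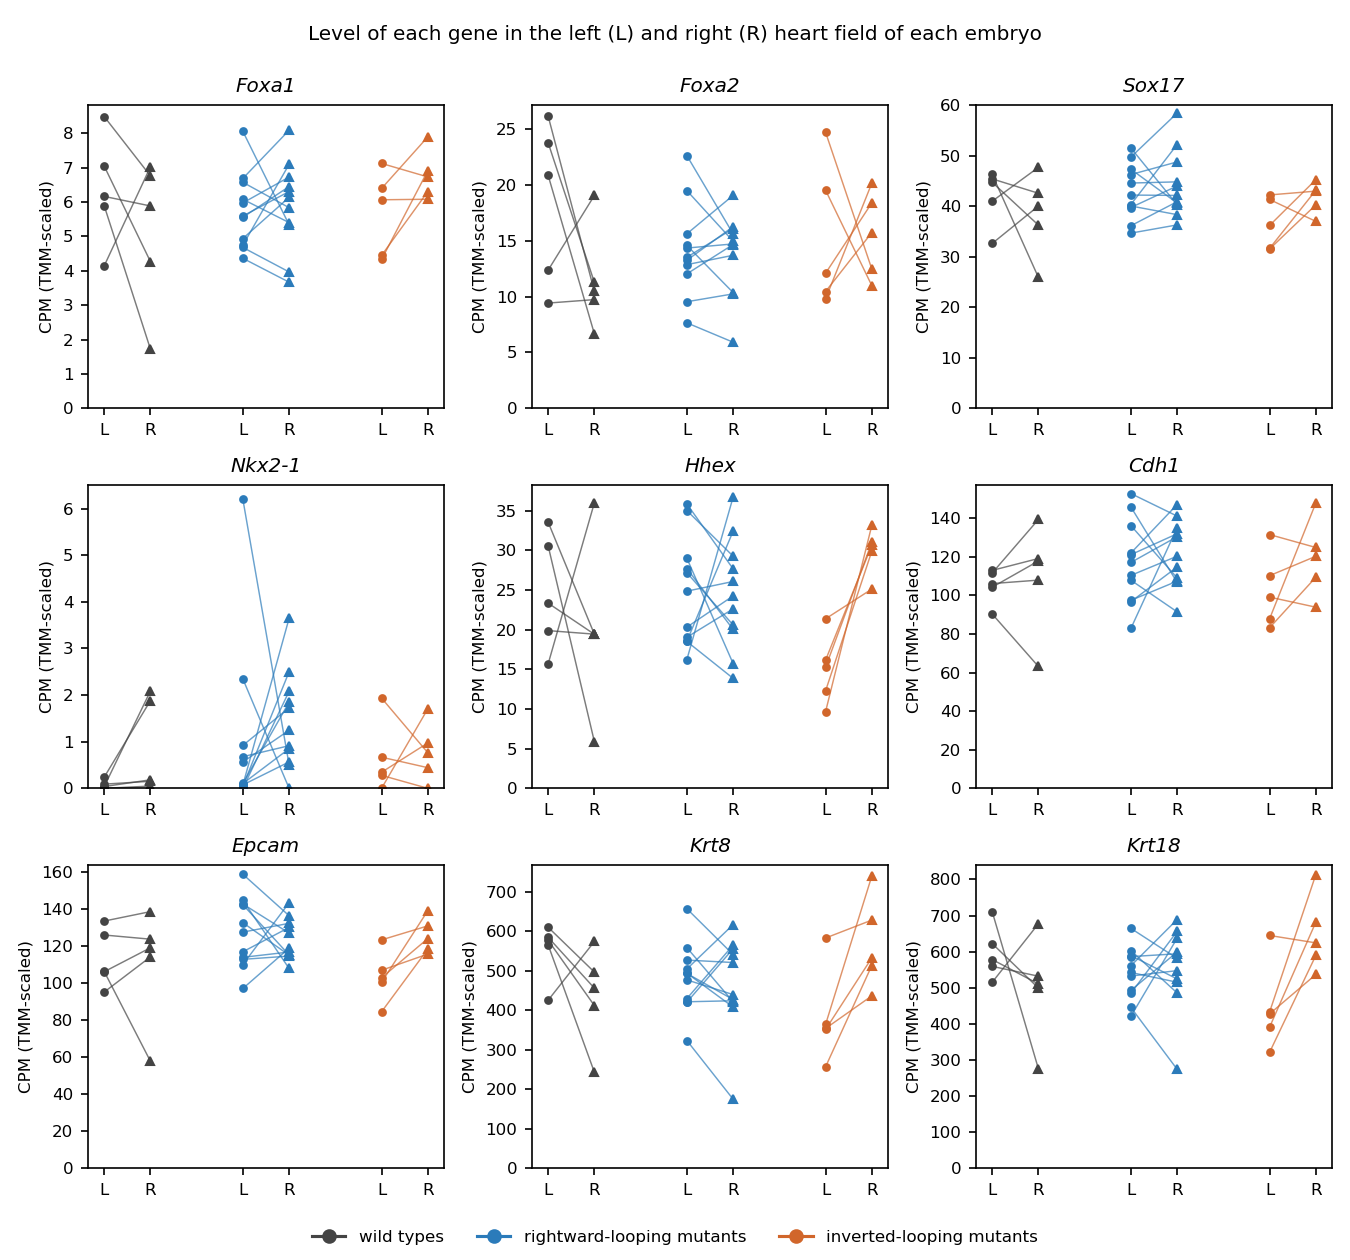
Level of each of the 9 genes in CPM, from 0 on a linear axis, in the left (L, circles) and right (R, triangles) heart field, with a line joining both sides of an embryo, for 5 wild types, 11 rightward-looping mutants and 5 inverted-looping mutants. The sides separate only for *Hhex* in inverted-looping mutants, where left values lie between 9.67 and 21.4 CPM and right values between 25.1 and 33.2 CPM.

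The main question put to these genes was whether they differ between right and left, and whether that depends on the direction of heart looping. In inverted-looping mutants, all 9 members had a higher fitted level on the right, and *Hhex* rose past the threshold. For *Foxa2* and *Nkx2-1* the sign turned when single embryos were left out. Of the 9 members, 1 was called at an adjusted p under 0.05, against 2.04% of the 22960 genes tested in either direction and 1.72% called with the right side higher. The median log2 fold change over the members was 0.28, against -0.01 over all genes tested, of which 48.8% were positive. In wild types and in rightward-looping mutants no member was called by edgeR, while DESeq2 called *Nkx2-1* in wild types (adjusted p = 0.0132). In these bulk samples, fewer cells of a type and less RNA per cell cannot be told apart.

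*Hhex* is a homeobox repressor of the anterior endoderm. In inverted-looping mutants its left level was 12.3 CPM in embryo 10_3, 9.67 in 18_2, 21.4 in 2_7, 15.3 in 32_2 and 16.2 in 4_6. Its right level was 29.9, 33.2, 25.1, 31.0 and 30.6 CPM in the same embryos. The right side was higher in 5 of 5 embryos. The sides did not overlap, which held for 1 of 9 members and, in either direction, for 3.05% of all genes tested. The mean left level was 15.0 ± 4.41 CPM and the mean right level 30.0 ± 2.97 CPM (SD, n = 5). The fitted log2 fold change of right over left was 1.04 ± 0.19 (SE), with a p of 0.0342 after Benjamini-Hochberg adjustment (quasi-likelihood test of edgeR). The exact sign-flip test over the log2 ratios gave p = 0.0625, the smallest value that 5 embryos allow. The call was lost when embryo 10_3 (adjusted p = 0.0754), 18_2 (0.0775), 32_2 (0.142) or 4_6 (0.0903) was left out, and kept without 2_7 (0.0129).

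In wild types *Hhex* had left levels of 30.6 CPM in 10_1, 19.9 in 17_7, 15.7 in 22_4, 23.3 in 7_1 and 33.6 in 8_1. Right levels were 5.87, 19.4, 36, 19.4 and 19.4 CPM. The left side was higher in 4 of 5 embryos, yet the log2 ratios ran from -2.37 to 1.20 and the fitted change of -0.42 ± 0.44 did not pass the test (adjusted p = 1.00). It was 0.02 without embryo 10_1 and -0.82 without embryo 22_4, the wild type that was higher on the right. Rightward-looping mutants had a lowest, median and highest *Hhex* level of 16.2, 24.9 and 35.9 CPM at left, and 13.9, 24.3 and 36.7 CPM at right. Here 5 of 11 embryos were higher on the right, and the fitted log2 fold change was -0.03 ± 0.16.

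The keratins also had higher right than left levels in most inverted-looping mutants, though short of the threshold. In CPM, *Krt8* had 257 on the left and 514 on the right in embryo 10_3, 365 and 740 in 18_2, 583 and 629 in 2_7, 352 and 533 in 32_2, and 354 and 437 in 4_6. All 5 embryos were higher on the right, a pattern seen in 8.61% of all genes tested. The fitted log2 fold change was 0.61 ± 0.13 with an adjusted p of 0.0640.

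*Krt18* had 321 and 589 CPM on the left and right of 10_3, 433 and 813 in 18_2, 645 and 624 in 2_7, 391 and 682 in 32_2, and 428 and 537 in 4_6. The right side was higher in 4 of 5 embryos, with embryo 2_7 as the exception, and the fitted log2 fold change was 0.57 ± 0.14 (adjusted p = 0.0808). Leaving out embryo 2_7 brought both keratins past the threshold, at 0.73 (adjusted p = 0.0363) for *Krt8* and 0.73 (adjusted p = 0.0190) for *Krt18*.

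*Epcam*, the epithelial cell adhesion molecule, had 107 and 116 CPM on the left and right of 10_3, 100.5 and 139 in 18_2, 123 and 131 in 2_7, 84.5 and 118 in 32_2, and 103 and 124 in 4_6. It was higher on the right in 5 of 5 embryos, but by less than the keratins, with a fitted log2 fold change of 0.28 ± 0.07 and an adjusted p of 0.0949. *Cdh1*, which encodes E-cadherin, was higher on the right in 3 of 5 embryos (0.22 ± 0.12, adjusted p = 0.431, and 0.08 to 0.30 with each embryo left out). The log2 ratio of *Hhex* exceeded that of *Epcam* in 5 of 5 inverted-looping mutants, by 0.15 to 1.30 with a median of 0.65, in 1 of 5 wild types and in 4 of 11 rightward-looping mutants. The choice of tool mattered for these genes. DESeq2 called *Hhex*, *Krt8* (adjusted p = 0.0129), *Krt18* (adjusted p = 0.0248) and *Epcam* (adjusted p = 0.000593) in inverted-looping mutants, 4 of 9 members against 8.84% of all genes it tested. Without a filter on low counts edgeR called the same 4 members, against 2.37% of genes.

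The promoters of the 4 genes that were higher on the right by this measure are shown, as the 250 bases before the start site on the gene's strand, 5′ to 3′, from RefSeq on the older build GRCm38.p6. Capitals mark an AGATAA word of GATA factors. The words searched, on both strands, were TGTTTAC for FOXA, AGATAA for GATA and AACAAT for SOX factors.
Hhex (chr19:37434591-37434840, plus strand): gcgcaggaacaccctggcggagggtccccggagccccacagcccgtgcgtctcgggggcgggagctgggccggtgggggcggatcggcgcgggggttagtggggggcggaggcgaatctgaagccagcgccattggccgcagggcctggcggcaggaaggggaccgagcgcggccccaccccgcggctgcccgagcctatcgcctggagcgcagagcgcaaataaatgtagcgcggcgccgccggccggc
Krt8 (chr15:102004343-102004592, minus strand): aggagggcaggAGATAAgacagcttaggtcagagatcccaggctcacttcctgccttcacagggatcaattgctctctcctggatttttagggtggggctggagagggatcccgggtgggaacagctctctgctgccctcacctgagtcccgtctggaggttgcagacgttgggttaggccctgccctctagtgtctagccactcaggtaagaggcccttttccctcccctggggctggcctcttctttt
Krt18 (chr15:102027966-102028215, plus strand): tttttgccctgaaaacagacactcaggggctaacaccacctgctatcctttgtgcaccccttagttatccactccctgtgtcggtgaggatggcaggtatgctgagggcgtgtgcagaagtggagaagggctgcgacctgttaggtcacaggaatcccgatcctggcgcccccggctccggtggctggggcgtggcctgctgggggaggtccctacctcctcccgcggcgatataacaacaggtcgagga
Epcam (chr17:87635729-87635978, plus strand): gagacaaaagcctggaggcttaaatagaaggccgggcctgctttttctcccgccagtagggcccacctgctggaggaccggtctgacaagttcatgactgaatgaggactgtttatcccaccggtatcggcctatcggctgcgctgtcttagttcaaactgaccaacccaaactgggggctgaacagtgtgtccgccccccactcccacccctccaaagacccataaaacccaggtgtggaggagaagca
No match overlapped another. Of these, *Krt8* held an AGATAA word, which starts 239 bases before its start site. AGATAA was found in 9.99% of 32851 promoter windows of this length, TGTTTAC in 3.17% and AACAAT in 9.42%. The table had windows for 7 of the 9 members. *Foxa1* held TGTTTAC on the opposite strand, 1 of 3 *Foxa2* windows held AGATAA and *Nkx2-1* held AACAAT. A word is a description of the sequence and not a binding site.

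*Foxa1*, a pioneer factor of endoderm, had a fitted log2 fold change of 0.28 ± 0.14 in inverted-looping mutants, where 4 of 5 embryos were higher on the right (adjusted p = 0.413). In wild types 4 of 5 embryos were higher on the left (-0.40 ± 0.32), and embryo 10_1 was the farthest with 5.90 CPM at left and 1.73 CPM at right.

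*Foxa2* differed in direction among inverted-looping mutants. Left and right levels in inverted-looping mutants were 9.81 and 20.2 CPM in 10_3, 12.1 and 18.4 in 18_2, 19.5 and 11 in 2_7, 10.5 and 15.7 in 32_2, and 24.7 and 12.5 in 4_6. Thus 3 embryos were higher on the right and 2 on the left, by log2 ratios of 0.59 to 1.04 and of -0.98 to -0.83, and the fitted change was 0.08 ± 0.31. Leaving out each embryo gave -0.16 to 0.36, so that the sign of this change depended on single embryos. In wild types *Foxa2* was 20.9 and 6.66 CPM in 10_1, 26.2 and 10.5 in 17_7, 12.4 and 19.1 in 22_4, 23.8 and 11.3 in 7_1, and 9.42 and 9.73 in 8_1. The fitted change there was -0.68 ± 0.33 (unadjusted p = 0.0748 and adjusted p = 1.00 by edgeR), which was -0.43 without embryo 10_1 and -0.997 without embryo 22_4. In rightward-looping mutants the log2 ratios of *Foxa2* stayed between -0.53 and 0.29.

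*Sox17* was the steadiest factor, with a coefficient of variation of 14.6% over the 42 libraries, against 33.5% for *Foxa2* and 32.5% for *Hhex*. Its level in inverted-looping mutants ran from 31.5 to 42.2 CPM at left and from 37.0 to 45.2 CPM at right. These ranges overlapped, and the fitted log2 fold change was 0.20 ± 0.10 (adjusted p = 0.385).

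*Nkx2-1* was rare and patchy. It had a count of 0 in 5 of 42 libraries, 3 left and 2 right. A count of 0 allows up to 3 counts, which are between 0.0471 and 0.0833 CPM over the depths of all 42 libraries. In wild types its counts on the left were 0 in 10_1, 2 in 17_7, 9 in 22_4, 2 in 7_1 and 4 in 8_1, and on the right 2, 103, 84, 9 and 8. The right side was higher in 5 of 5 wild types, although 3 of these embryos had fewer than 10 counts on both sides.

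The fitted log2 fold change of *Nkx2-1* in wild types was 3.15 ± 0.70, with an unadjusted p of 0.00218 and an adjusted p of 1.00 by edgeR, so that it did not pass. DESeq2 called it (3.05, adjusted p = 0.0132), the only member among the 0.088% of genes that it called in wild types. Rightward-looping mutants had a lowest, median and highest level of 0, 0.104 and 6.20 CPM at left and of 0, 1.25 and 3.65 CPM at right. In 9 of 11 the right side was higher. The exceptions were embryo 2_2, with 328 counts on the left and 23 on the right, and embryo 3_7, with 108 and 0. The fitted change was 1.67 ± 0.95, and 2.22 without embryo 2_2.

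In inverted-looping mutants counts of *Nkx2-1* on the left and right were 88 and 31 in 10_3, 0 and 71 in 18_2, 19 and 62 in 2_7, 27 and 20 in 32_2, and 12 and 0 in 4_6. The right side was higher in 2 of 5 embryos, with a fitted log2 fold change of 0.31 ± 1.01. Leaving out each embryo gave -0.59 (without 18_2) to 0.91 (without 10_3), so that its sign depended on single embryos. Over all embryos, 9 had 10 counts or more on the right alone, 2 on the left alone, 7 on both sides and 3 on neither. The difference of asymmetry between inverted- and rightward-looping mutants was -1.43 ± 1.55 (adjusted p = 0.804), and ran from -2.31 without 18_2 to -0.81 without 10_3. Markers of forebrain, where *Nkx2-1* is also expressed, were near 0, with at most 0.0738 CPM of *Nkx2-4*, 0.175 CPM of *Rax* and 0.528 CPM of *Six3* in any library.

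**Figure D2:**
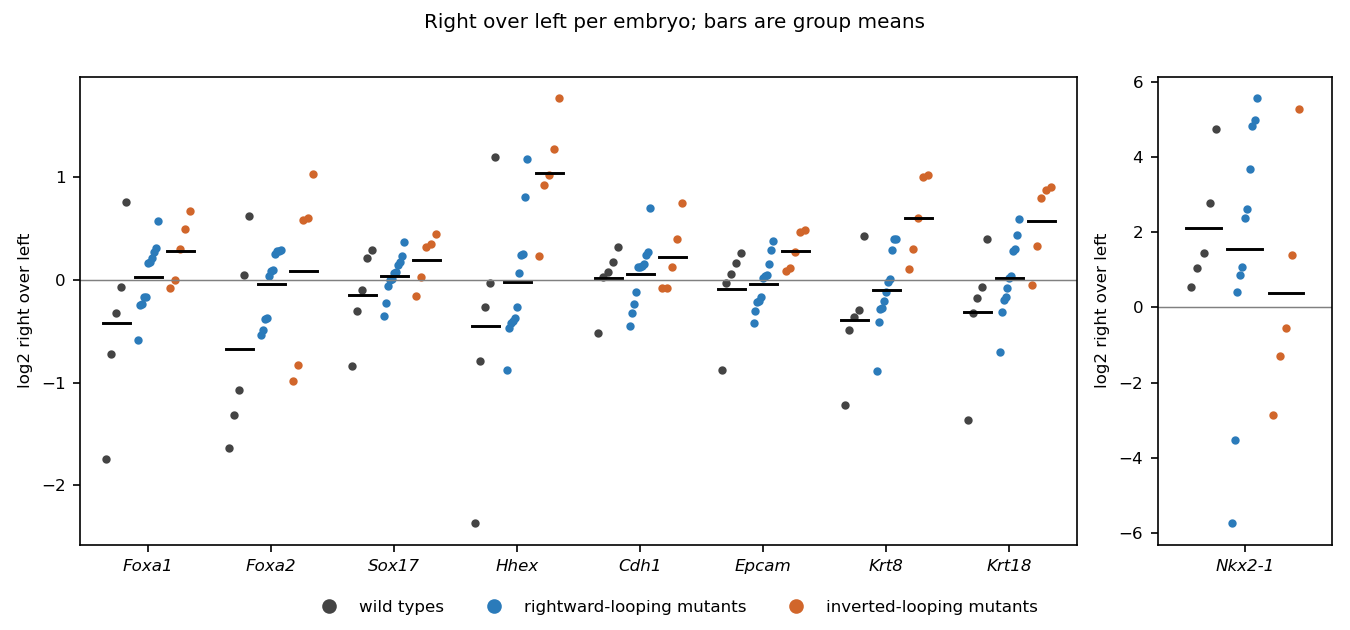
Log2 ratio of right over left level for each embryo (points) and group mean (bars), for 8 members on the left axis and *Nkx2-1* on a wider axis on the right. In inverted-looping mutants all 5 points of *Hhex*, *Krt8* and *Epcam* lie above 0, whereas the wild type 10_1 is the lowest wild-type point for every member but *Nkx2-1*.

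Counted by embryo over the 8 members other than *Nkx2-1*, all 8 were higher on the right in 3 of 5 inverted-looping mutants, in 1 of 5 wild types and in 0 of 11 rightward-looping mutants. All 8 were lower on the right in 1 wild type, in 1 rightward-looping mutant and in 0 inverted-looping mutants. The genes of an embryo share 2 libraries and are not independent.

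Right over left did not pass edgeR's test for any member in the other two groups, and DESeq2 called *Nkx2-1* alone, in wild types. In wild types edgeR called 0 of 9 members, and 0% of 23182 genes, with 639 genes at an unadjusted p under 0.05. Members ran from -0.68 for *Foxa2* to 3.15 for *Nkx2-1*, with 7 of 9 negative, and sides overlapped for all 9, whereas they did not for 0.462% of genes. In rightward-looping mutants 0 of 9 members were called against 0.0263% of 22795 genes, their fitted changes ran from -0.11 for *Krt8* to 1.67 for *Nkx2-1*, and sides did not overlap for 0% of genes. DESeq2 called 0 members in this group, and no member had an unadjusted p under 0.05. Without embryo 10_1 the wild-type changes of *Krt8* and *Krt18* went from -0.38 to -0.17 and from -0.29 to -0.04, that of *Foxa1* from -0.40 to -0.09, that of *Sox17* from -0.13 to 0.04, that of *Cdh1* from 0.03 to 0.16 and that of *Epcam* from -0.07 to 0.12. Without embryo 22_4 the changes of *Krt8*, *Krt18*, *Foxa1*, *Sox17*, *Cdh1* and *Epcam* were -0.58, -0.47, -0.69, -0.22, -0.05 and -0.10.

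The exact sign-flip test gave a p under 0.05 for 0 of 27 combinations of member and group, and among rightward-looping mutants, the group with enough embryos to reach that limit, the lowest p was 0.171 for *Nkx2-1*.

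Whether right over left differed between groups was tested as an interaction between side and group, fitted on all 42 libraries with a block for each embryo. Between inverted- and rightward-looping mutants, 0 of 9 members were called against 0.311% of 26335 genes. The differences that came nearest were those of *Krt8*, 0.70 ± 0.21 (unadjusted p = 0.00320, adjusted p = 0.182), *Hhex*, 1.06 ± 0.39 (adjusted p = 0.301), *Krt18*, 0.55 ± 0.22 (adjusted p = 0.358), and *Epcam*, 0.31 ± 0.15 (adjusted p = 0.445), all by edgeR's quasi-likelihood test. The call of *Hhex* within inverted-looping mutants was therefore not shown to be a difference from rightward-looping mutants. DESeq2 called 0 members in this comparison. Between rightward-looping mutants and wild types, 0 of 9 members and 0% of genes were called, by both tools, and 800 genes had an unadjusted p under 0.05.

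**Figure D3:**
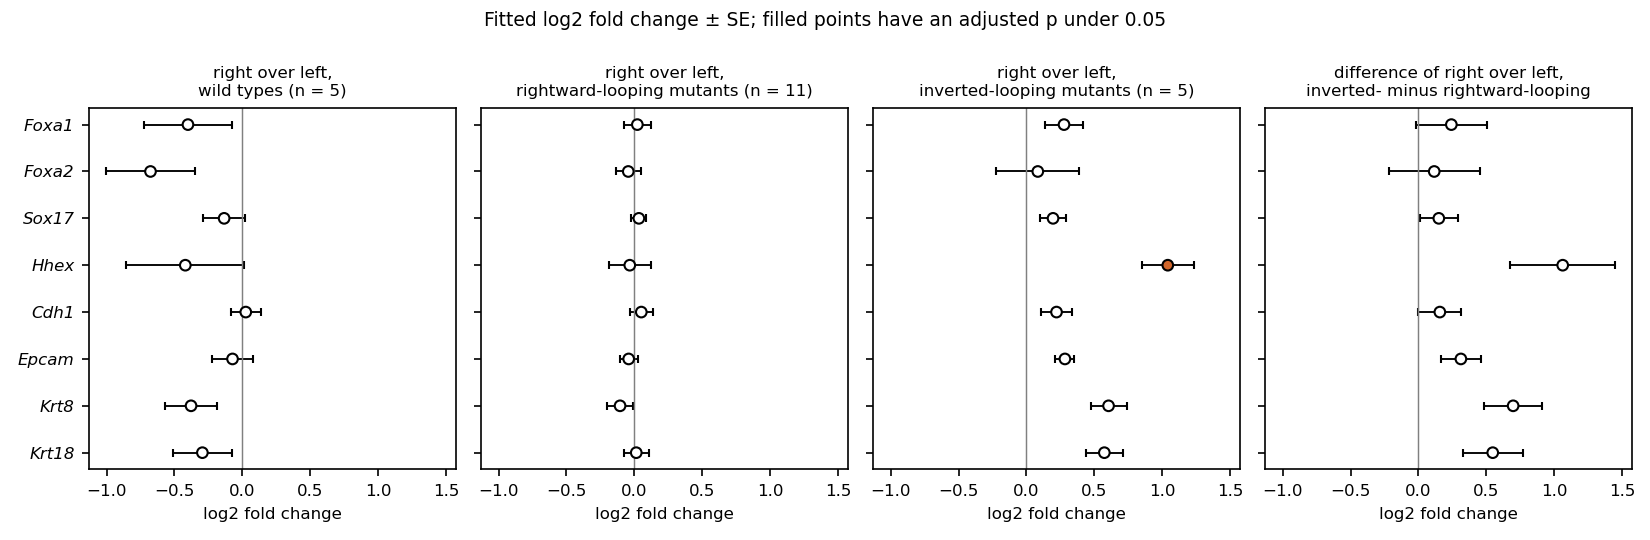
Fitted log2 fold change ± SE by edgeR for 8 members (*Nkx2-1*, which has an SE of 0.70 or more, is left out) as right over left in each group and as the difference of right over left between inverted- and rightward-looping mutants. *Hhex* in inverted-looping mutants, 1.04 ± 0.19, is the filled point, whose adjusted p is under 0.05.

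Levels were then compared between groups on each side, with sex as a term. No member passed in any of the 4 comparisons by edgeR. Rightward-looping mutants over wild types gave 0 of 9 members on the left, against 0.0242% of genes, and 0 of 9 on the right, against 0.0121%. Inverted- over rightward-looping mutants gave 0 of 9 on the left, against 0.0121%, and 0 of 9 on the right, against 0.00805%. *Nkx2-1* on the left of rightward-looping mutants over wild types had a fitted difference of 3.85 ± 1.38 (unadjusted p = 0.0110 and adjusted p = 0.978 by edgeR), which was 2.55 without embryo 2_2 and ran from 2.55 to 4.62 with each embryo left out. *Hhex* had a median of 15.3 CPM on the left of inverted-looping mutants, against 24.9 CPM on the left of rightward-looping mutants and 23.3 CPM on the left of wild types. Its fitted log2 difference between the mutant groups on the left was -0.71 ± 0.19, with an unadjusted p of 0.00104 and an adjusted p of 0.396 by edgeR, whereas DESeq2 called it (adjusted p = 0.0280, against 0.437% of genes). Of the 9 members, 8 had a negative fitted difference in this comparison, among them *Krt8* (-0.33 ± 0.14) and *Epcam* (-0.28 ± 0.10), while that of *Nkx2-1* went from -0.63 to 0.49 without embryo 2_2. On the right the differences of *Hhex* and *Krt8* were 0.30 ± 0.26 and 0.30 ± 0.20. With each embryo left out these ran from 0.23 to 0.40 and from 0.18 to 0.38, and that of *Krt8* on the left from -0.52 to -0.25.

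Members varied together to different degrees. Over the 21 embryos the log2 ratios of *Krt8* and *Krt18* had a Pearson's r of 0.97 and their log2 CPM over the 42 libraries of 0.94, the highest of the 36 pairs on both scales. *Krt8* had between 0.638 and 1.05 times as many CPM as *Krt18*. *Hhex* followed the keratins, with r of 0.91 with *Krt18* and 0.89 with *Krt8* for the ratios. *Cdh1* and *Epcam*, both adhesion proteins, formed another close pair for levels, with r = 0.82. *Nkx2-1* stood apart, with r of ratios between -0.23 and 0.41 to the other members, while the 28 pairs without it ran from 0.34 to 0.97 with a median of 0.70. These are descriptions over libraries that share a scale factor within each pair of values.

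The level of the members as a set was taken as the mean of their standardised log2 CPM. *Krt18* (r = 0.81) and *Hhex* (r = 0.79) were closest to the mean of the other 8 members over the 42 libraries, and *Nkx2-1* (r = 0.23) and *Foxa2* (r = 0.45) were the farthest. Among 11966 other protein-coding genes, the most alike were *Jup* (r = 0.86), which encodes the junction protein plakoglobin, *Cpm* (0.86), *Cldn7* (0.84), a claudin of tight junctions, *Sec14l4* (0.84), *Podxl* (0.83), *Ripk4* (0.83), *Apoa5* (0.83) and *Pcgf5* (0.82). At the other end were *Dnph1* (r = -0.82), *Dkc1* (-0.79), *Fkbp3* (-0.78), *Anp32a* (-0.78), *Prps1* (-0.78), *Cmss1* (-0.77), *Ruvbl2* (-0.77) and *Ipo5* (-0.76).

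Other genes of the foregut were read from 4 lists holding 61 genes. In inverted-looping mutants 2 of 61 were called higher on the right and 2 lower, with a median log2 fold change of 0.29 over the lists. Of all 22960 genes tested, 395 were called higher on the right and 73 lower, and 48.8% had a positive fitted change. Of 16 endoderm regulators, 14 were higher on the right in fitted value, with a median of 0.55. *Onecut1*, a factor of liver and pancreas, had 2.10 ± 0.55 CPM at left and rose to 4.58 ± 0.79 CPM at right (log2 1.14 ± 0.21, adjusted p = 0.0357), with a highest left value of 2.97 CPM and a lowest right value of 3.77 CPM. *Sox9* fell by 0.38 on the log2 scale (SE 0.06, adjusted p = 0.0162), from 224 ± 104 to 174 ± 85.9 CPM, and was lower on the right in all 5 embryos although its ranges overlapped. It made up much of the list's summed level, which had a left median of 399 CPM in these embryos. In which tissue *Sox9* differed was not tested.

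Of 10 signals and receptors of the foregut, *Bmp4* rose from 45.6 ± 9.55 to 80.8 ± 13.0 CPM (log2 0.84 ± 0.13, adjusted p = 0.0198), and *Fgf15* fell from 34.0 ± 19.3 to 12.2 ± 12.4 CPM (log2 -1.67 ± 0.31, adjusted p = 0.0360). *Bmp4* is also expressed in mesoderm and *Fgf15* in neural tube. Of 23 genes of epithelial junctions and keratins, 20 had a positive fitted change, with a median of 0.30, and none was called. Of 12 genes of the pharynx and anterior foregut, 3 were positive, with a median of -0.18. In the other 8 comparisons none of these genes was called.

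Marker genes of neighbouring tissues also differed between sides of inverted-looping mutants. Of all genes tested there, 1.72% were called higher on the right, and 73 of 22960 lower. Of 10 genes of heart tube muscle, 8 were called higher on the right, with summed levels of 1282 to 2441 CPM (left) and 2357 to 4743 CPM (right). All 10 were detected in every library. Of 12 genes of heart field progenitors, 5 were called higher on the right, with sums of 604 to 838 CPM (left) and 862 to 1211 CPM (right). Of 8 neural tube genes, 4 were called lower on the right, with sums of 84.1 to 139 CPM (left) and 11 to 82.6 CPM (right). *Olig2*, *Sox1* and *Zic1* of this list had a count of 0 in 12, 6 and 5 of the 42 libraries.

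Among tissues that also express a member, endothelium had 0 of 12 genes called, and its sums were 503 to 597 CPM (left) and 557 to 635 CPM (right), higher on the right in 5 of 5 embryos by 0.09 to 0.27 on the log2 scale. Yolk sac visceral endoderm had 0 of 12 genes called (307 to 1193 CPM and 671 to 2241 CPM), yet all 12 had a positive fitted change, with a median of 0.55. In wild types 0 of these 12 were positive (median -1.12) and in rightward-looping mutants 1 of 12 was (median -0.27). Embryos varied widely, and the summed level was higher on the right in 3 of 5 inverted-looping mutants, with log2 ratios from -0.83 to 2.78, and in 1 of 5 wild types, from -2.19 to 1.35. Surface ectoderm had 0 of 8 (40.6 to 90.3 CPM and 46.3 to 82.5 CPM), mesothelium and proepicardium 0 of 6 (106 to 162 CPM and 120 to 156 CPM), forebrain 0 of 6 tested and blood 0 of 8. Of notochord and floor plate genes 1 of 8, *Ntn1*, was called lower on the right. The part of these tissues in the change of *Hhex* was not tested.

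Over all 21 embryos, right over left of the members followed that of these marker sums to different extents, a comparison chosen after the values were seen. In all, 90 relations of 9 members with 10 lists were computed, and 35 had a Benjamini-Hochberg adjusted p under 0.05 by a permutation test of Pearson's r. All 21 embryos were permuted without regard to group, so that these p-values also take in differences between the groups. For heart tube muscle, *Krt18* had r = 0.88 and Spearman's rho = 0.86 (permutation p = 1e-05 and 2e-05, the former the smallest that 100000 resamples can give, adjusted p = 0.00018 and 0.00027), *Krt8* r = 0.84 and rho = 0.81 (permutation p = 1e-05 and 2e-05), *Hhex* r = 0.80 and rho = 0.85 (permutation p = 4e-05 and 2e-05), and *Epcam* r = 0.80 and rho = 0.82 (permutation p = 3e-05 and 3e-05). Without the 2 embryos farthest from the median of the marker, r was 0.80, 0.71, 0.77 and 0.73. Within the 11 rightward-looping mutants r was 0.87, 0.82, 0.49 and 0.63 (permutation p of r = 0.0007, 0.00333, 0.131 and 0.0328) and rho was 0.85, 0.76, 0.75 and 0.68, for which no p was computed. Heart field progenitors gave like values, with r of 0.87 for *Krt18*, 0.84 for *Krt8*, 0.79 for *Hhex* and 0.81 for *Epcam* (rho = 0.87, 0.83, 0.82 and 0.80, permutation p between 1e-05 and 4e-05 for r and rho). Within rightward-looping mutants r with this list was 0.88, 0.84, 0.49 and 0.72 (permutation p of r = 0.00058, 0.00184, 0.130 and 0.00956). The 5 wild types and the 5 inverted-looping mutants were too few for a value of their own.

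Further relations were with other lists. *Foxa2* had an r with mesothelium and proepicardium of 0.84 (rho = 0.84, permutation p = 1e-05 for both), and 0.83 without the 2 farthest embryos. Within rightward-looping mutants it was 0.59 (rho = 0.48, permutation p of r = 0.0511). With the same list r was 0.80 for *Foxa1*, 0.77 for *Krt18*, 0.73 for *Krt8*, 0.68 for *Cdh1*, 0.61 for *Sox17* and *Hhex*, 0.59 for *Epcam* and 0.29 for *Nkx2-1*. Much of this sum was the keratin gene *Krt19*, with a median of 83.0 CPM, against at most 17.0 CPM for the list's other genes. The r of *Foxa2* with notochord and floor plate, where it is also expressed, was 0.38 (rho = 0.41, permutation p = 0.093 and 0.07, adjusted p = 0.188 and 0.180), and 0.31 without the 2 farthest. *Sox17* had an r with endothelium of 0.75 (rho = 0.69, permutation p = 0.00013 and 0.00074), which was 0.56 without the 2 farthest embryos and 0.58 within rightward-looping mutants. *Hhex* with endothelium had r = 0.68 (rho = 0.51, permutation p = 0.00076 and 0.0203, adjusted p = 0.00342 and 0.0631), which was 0.66 without the 2 farthest embryos and 0.14 within rightward-looping mutants (permutation p = 0.687). With yolk sac visceral endoderm *Sox17* had r = 0.69 (rho = 0.70, permutation p = 0.00049 and 0.00068), which was 0.75 without the 2 farthest embryos and 0.32 within rightward-looping mutants. With the same list r was 0.70 for *Foxa2*, 0.61 for *Krt8* and 0.54 for *Krt18* (adjusted p = 0.00201, 0.0120 and 0.0306 by the permutation test of r). Within rightward-looping mutants these r were 0.28, 0.29 and 0.18. *Epcam* ran opposite to neural tube genes, with r = -0.78 (rho = -0.79, permutation p = 4e-05 and 3e-05). The r with neural tube was also negative at an adjusted p under 0.05 for *Hhex* (-0.66), *Krt18* (-0.66), *Krt8* (-0.60), *Foxa1* (-0.56) and *Cdh1* (-0.54), with rho of -0.67, -0.68, -0.59, -0.53 and -0.59 (permutation p from 0.00102 to 0.0109 for r and from 0.00092 to 0.0156 for rho). Within rightward-looping mutants r with neural tube was -0.72 for *Epcam* (rho = -0.72, permutation p of r = 0.0129), and it was -0.46, -0.53, -0.47, -0.32 and -0.47 for these 5 genes (rho = -0.54, -0.66, -0.59, -0.48 and -0.74), with a permutation p of r from 0.0947 to 0.330, so that none of the 5 passed within that group. *Cdh1* and *Epcam* had r of -0.03 and 0.28 with surface ectoderm (rho = 0.07 and 0.40, permutation p = 0.908 and 0.215 for r). The ratios on both axes come from the same pair of libraries. *Krt19* stands in the lists of mesothelium and of epithelial keratins, *Shh* in those of notochord and of foregut signals, and *Tbx1* in those of heart field and of pharynx.

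**Figure D4:**
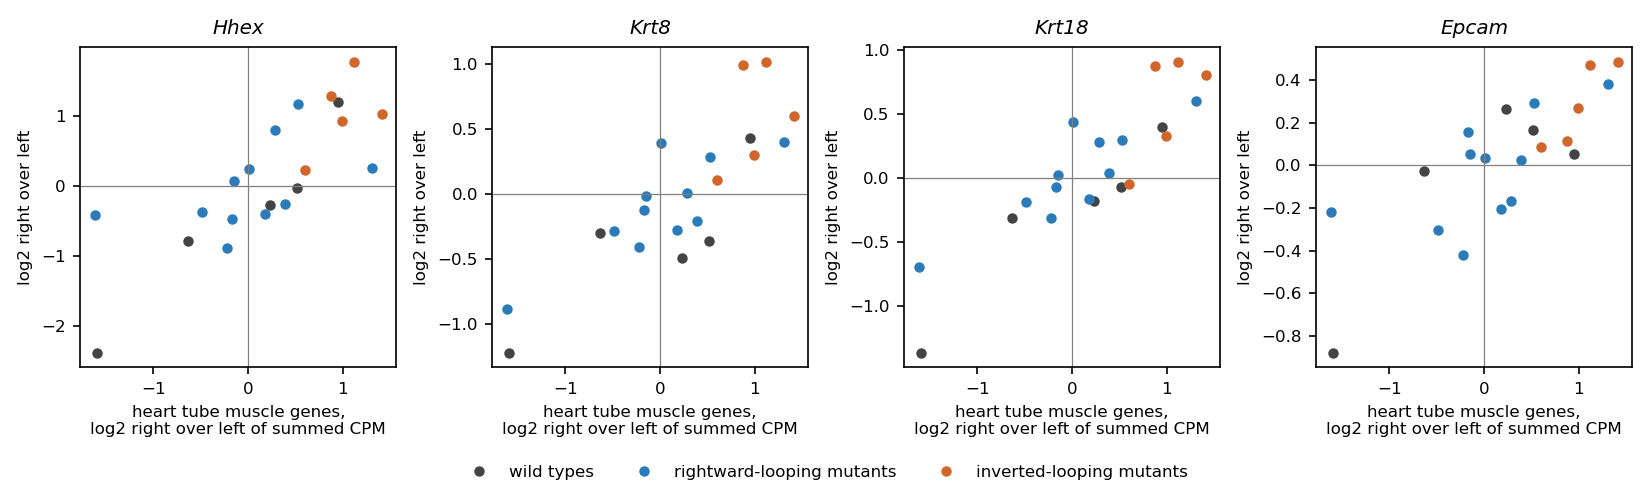
Log2 ratio of right over left of *Hhex*, *Krt8*, *Krt18* and *Epcam* for each of 21 embryos against the log2 ratio of the summed CPM of 10 heart tube muscle genes. Inverted-looping mutants lie between 0.60 and 1.41 on the horizontal axis. The rightward-looping mutant 19_4 (1.31) and the wild type 22_4 (0.95) lie within the same span. At the far left are the wild type 10_1 (-1.60) and the rightward-looping mutant 2_2 (-1.62).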

How the data were processed

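The authors trimmed adapters, aligned reads to GRCm39 with STAR, removed duplicates and counted reads per gene with featureCounts of Subread 2.0.6, and the deposited values are raw counts, not normalized. The use of strand is not given in the sources used here, so overlapping genes cannot be told apart. Groups came from the labelled genotype and looping direction. The members and lists were chosen with earlier results of these data known. Library totals ranged from 36073684 to 62970327 counts, and limits cover counting error only.

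Counts were scaled by TMM and tested in R 4.3.3 with the quasi-likelihood test of edgeR 4.0.16. The filter filterByExpr (minimum count 5, total count 10, large groups from 50, proportion 0.2) kept genes that reached, in at least as many libraries as the smallest group of a fit held, the CPM that 5 counts make in a library of median size. No group was large enough for the proportion to apply. P-values were adjusted over all genes tested by the Benjamini-Hochberg method, at a threshold of 0.05. Tests of right over left carried the embryo as a block, since both libraries come from the same animal, and their residuals had a median r of 0.31 over 2000 genes (range -0.09 to 0.75). Levels carried sex as a term. Log2 ratios used a prior count of 2. DESeq2 1.42.0 was an alternative, and permutation tests were two-sided. Fits were tested on simulated data first. Named genes were the 9 members, up to 6 called genes per comparison from the foregut lists, and the 8 most and 8 least alike genes. Alternatives were other scalings, no filter, no embryo block, males alone, no sex term, 1 fit of all libraries, each embryo left out and, chosen after seeing the data, the removal of embryos 2_2 and 10_1.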

Additional observations from a re-analysis of the deposited data

Results flagged for a closer look

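Of 54 sets of 5 embryos examined for a value far from the others, 2 had one, where chance alone gives about 1 in 20. The log2 ratio of right over left of *Epcam* was -0.88 in the wild type 10_1, against -0.03 to 0.26 in the other 4 wild types. The left level of *Krt8* was 426 CPM in the wild type 22_4, against 566 to 611 CPM in the other 4.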

How the results depend on the processing

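Of 1646 values of the 9 members under the alternatives, 1630 stayed on the same side of the threshold, 6 lost a call, 10 gained one and 0 turned a called direction, while 71 that were not called changed sign. *Hhex* in inverted-looping mutants was not called in 1 fit of all libraries (adjusted p = 0.141) or in males alone (adjusted p = 0.0773). Without a filter on low counts, *Krt8* (adjusted p = 0.00188), *Krt18* (0.00332) and *Epcam* (0.0397) were called, with 2.37% of genes. The cause of these changes was not tested. No scaling moved the median of all genes by over 0.1. *Nkx2-1* had no count in 5 libraries, among them the right library of 3_7, whose left library had 108 counts. The part of depth in this was not tested.

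Called genes for right over left numbered 0 in wild types, and 20 with DESeq2, 2 without the filter and 1 in the fit of all libraries. They numbered 6 in rightward-looping mutants, and 32 with DESeq2 and 1 in males alone. They numbered 468 in inverted-looping mutants, and 1755 with DESeq2, 942 without the filter, 141 when all libraries were fitted together and 53 in males alone. The difference of asymmetry between mutant groups had 82, and 456, 131, 7 in males alone and 191 without 2_2 and 10_1. Without the embryo block, which breaks the pairing of left and right, counts were 1, 305 and 17 in rightward-looping mutants, inverted-looping mutants and the difference between them, and 0 in wild types.

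For levels of rightward-looping mutants over wild types, the left had 6 genes, and 20 with DESeq2, 11 without the filter and 0 in males alone. The right had 3, and 6, 8, 0, and 7 without 2_2 and 10_1. For inverted- over rightward-looping mutants, the left had 3, and 104 with DESeq2 and 1 in males alone. The right had 2, and 18 with DESeq2, 0 in males alone, 0 without the sex term, and 4 without 2_2 and 10_1. Leaving out each embryo gave ranges of 2 to 8 (right over left in rightward-looping mutants), 138 to 446 (in inverted-looping mutants), 18 to 158 (difference between mutant groups), 1 to 11 and 0 to 12 (levels over wild types, left and right), and 2 to 6 and 0 to 4 (levels between mutants, left and right). Of *Hhex*, *Krt8* and *Krt18* in inverted-looping mutants, fitted values ran from 0.85 to 1.25, 0.49 to 0.73 and 0.48 to 0.73 with each embryo left out.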
